A study of Rattus norvegicus with 6 samples.

Results

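The 36 genes described here encode the main enzymatic antioxidant defences of the cell and the NRF2 regulator that controls many of them. They were chosen by name, with earlier results of these data known. A gene belonged if its symbol in the file of Ta replicate 1 was on the list. The list held NRF2 pathway genes, superoxide dismutases, glutathione and thioredoxin enzymes and glutathione transferases. All 36 were found, on 46 probes, among 34911 gene or probe names on the array. Of these, 35 met the filter on dim probes (well above background on 3 or more arrays) and were tested, and all 35 were well above background on all 6 arrays. The exception was Gclm, the modifier subunit of glutamate-cysteine ligase. Its only probe was not well above background on any of the 6, so no difference is given.

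Cells labelled rBMSCs, isolated from the marrow of rat tibias, were grown for 7 days on titanium, either with its surface modified by tantalum (Ta, 3 arrays) or left simple (Ti, 3 arrays), and total RNA was hybridised to one-colour Agilent arrays. The series' design text counts each culture as an independent experiment. No genetic change or added agent is named for either group, the rats' strain, age and number are not given in the sources used here, and the protocol text of the Ti samples repeats the wording of the Ta samples, so the groups rest on the titles and the culture field. The question asked here is how the RNA of antioxidant genes compares between the 2 surfaces.

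All 6 arrays lay on 1 slide, the Ta arrays and Ti replicate 1 in row 1 and Ti replicates 2 and 3 in row 2, and 62.7% to 65.9% of each array's spots exceeded background clearly. The scanner software marked Ti replicate 2 for evaluation. Of 14 mesenchymal stromal markers 13 were well above background on every array, and so were 17 of 19 macrophage and monocyte markers. In bulk RNA fewer cells of a type and less RNA per cell cannot be told apart. The summed signal of 18 tested macrophage markers ran from 71586 to 183608 on the Ta arrays, highest on Ta replicate 1, and from 199941 to 259109 on the Ti arrays, with 16 of the 18 lower on Ta on average and 0 past the test (10 at an unadjusted p under 0.05 in limma). The summed signal of 4 tested neutrophil markers was 304 to 630 on Ta and 121 to 181 on Ti, while S100a9, Elane, Ngp, Cxcr2 and Mmp8 did not pass the filter on dim probes. Of these 4, S100a8 (2.95 ± 0.50, adjusted p = 0.0447) and Camp (1.68 ± 0.30, adjusted p = 0.0453) rose on Ta, and Csf3r differed by -0.88 without passing. The 7 tested mast cell markers summed to 809 to 892 on Ta and 1338 to 2224 on Ti, and 5 of them fell (Cma1, Mcpt1l1, Kit, Mcpt8 and Cpa3). On Ta, 0 of 3 arrays had Cma1 or Mcpt1l1 well above background, and Mcpt8 fell with a log2 difference of -2.16 ± 0.34 (adjusted p = 0.0428). Hdc, the brightest of the 7 on every Ta array, differed by 0.73 (adjusted p = 0.0564), so the sum moved less than the markers that fell. Of the 13 tested mesenchymal markers, Thy1 (0.67) and Cxcl12 (1.06) rose and 0 fell. The part of these cells in the differences below was not tested.

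Superoxide dismutases turn superoxide into hydrogen peroxide, and catalase, glutathione peroxidases and peroxiredoxins remove the peroxide. Glutathione and thioredoxin supply the electrons and are recharged with NADPH by glutathione reductase and thioredoxin reductase, while glutathione transferases couple glutathione to reactive molecules. NRF2 is held by KEAP1 and broken down in resting cells. When oxidants or electrophiles modify KEAP1, NRF2 gathers in the nucleus and, paired with a small MAF protein, binds antioxidant response elements in the promoters of genes such as Nqo1, Gclc, Txnrd1 and Slc7a11.

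The core letters of this element, TGACNNNGC, were searched on both strands of RefSeq promoter windows (GRCr8 build, 250 bases before to 50 after a gene's start). The table held 32 of the 36 genes, without Sod3, Gpx8, Prdx6 and Gsr. The core occurred in 10 of the 32 (31.2%), in 13.1% of all 27457 genes with a window and in 12.1% of all 33469 windows. The 10 were Gclm, Gsta1, Gsta2, Gstp1, Nfe2l2, Prdx1, Prdx4, Prdx5, Sod2 and Txnrd1, and the windows of Nqo1, Slc7a11, Gclc and Srxn1 did not hold these letters. A match is a description of the sequence and not evidence of binding. Sequence outside these windows was not searched, so a window without these letters does not show that a gene lacks the element.

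The promoter of Sod2 is shown whole up to its start because Sod2 had the largest difference of the 35 genes. It lies at chr1:50050169-50050418 on the minus strand and 71.6% of its 250 bases are G or C. Capitals mark the core, which runs on the strand opposite to the gene and so appears as its reverse complement.
Sod2 promoter: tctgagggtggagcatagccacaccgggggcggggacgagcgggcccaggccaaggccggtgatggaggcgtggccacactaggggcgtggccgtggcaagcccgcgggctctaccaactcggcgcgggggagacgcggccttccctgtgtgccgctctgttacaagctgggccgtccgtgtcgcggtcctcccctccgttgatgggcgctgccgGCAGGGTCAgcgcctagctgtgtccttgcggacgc

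The cores of 5 more genes are shown with 10 bases on either side, read 5′ to 3′ along the strand that carries TGACNNNGC, with the core in capitals. They are those of the other genes past the test, Gsta1 and Prdx4, and 3 genes that did not pass, Gstp1, Prdx1 and Txnrd1. Those of Gstp1 (chr1:210769748-210769776, minus strand) and Prdx1 (chr5:135383761-135383789, minus) share the same 9 letters, beginning 61 and 135 bases before the start. That of Txnrd1 (chr7:22755964-22755992, plus) begins 78 bases before one of the gene's 2 listed starts, and those of Gsta1 (chr9:31216484-31216512, minus) and Prdx4 (chrX:43878742-43878770, minus) lie just after it.
Gstp1: tccactgtgtTGACTCAGCatccggggcg
Prdx1: cggcggggtaTGACTCAGCgctttccctg
Txnrd1: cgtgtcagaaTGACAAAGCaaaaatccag
Gsta1: aactcaggcaTGACTTTGCatttttcttc
Prdx4: cacgtttccaTGACCAAGCgagcacgaaa

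Of the 35 tested genes, Sod2 and Gsta1 rose on Ta, Prdx4 fell, and 32 did not pass an adjusted p of 0.05 in limma's test over all 19616 genes. These 3 calls, 8.57% of the 35, stand beside 4.12% of all genes called, 2.66% of all genes as higher on Ta and 1.47% as lower. With so few calls the share is a description only. The median log2 difference (Ta minus Ti) was 0.20 over the 35 genes and 0.03 over all genes, and 26 of the 35 (74.3%) lay above 0 against 53.8% of all genes. The groups did not overlap in 17 of the 35 genes (48.6%), 12 of them higher and 5 lower on Ta, against 35.8% of all genes, and 15 passed an unadjusted p of 0.05 (42.9%, against 29.9% of all genes).

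Each call depended on single arrays. When Ta replicate 2 or 3, or Ti replicate 1 or 3, was left out, 0 of the 35 genes passed in limma (9 at an unadjusted p under 0.05 each time), as did 0 of all genes. Without Ta replicate 1, 11 of the 35 passed beside 3221 of all genes. Without Ti replicate 2, which the scanner software had marked, Sod2, Gsta1, Prdx4 and Gsr passed beside 1563 of all genes. There Gsta1 sat at the threshold, with an adjusted p in limma that rounds to 0.05. The differences themselves moved little, from 1.36 to 1.63 for Sod2, from 0.94 to 1.26 for Gsta1 and from -0.53 to -0.41 for Prdx4 over the 6 arrays left out.

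**Figure D1:**
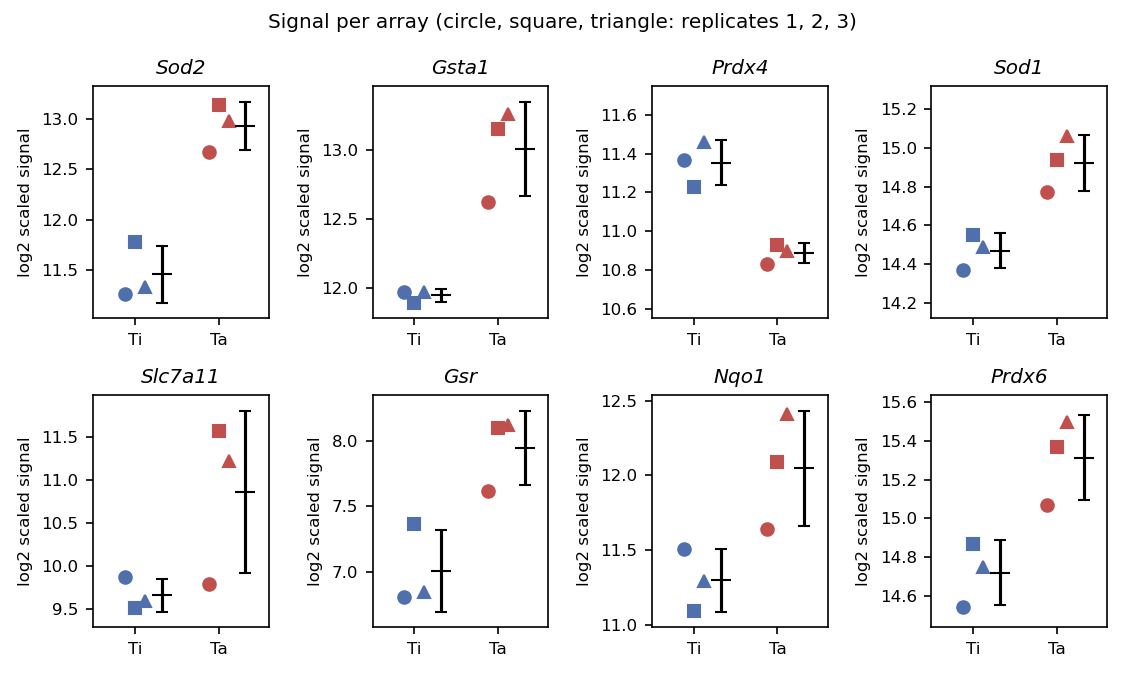
Log2 scaled signal (vertical axis, a separate range in each panel) of 8 genes on the Ti arrays (blue) and the Ta arrays (red), one point per array, with the mean and SD of each group in black. The groups are apart for Sod2, Gsta1 and Prdx4, which passed the test, and for Sod1, Gsr, Nqo1 and Prdx6, which did not. For Slc7a11 Ta replicate 1 (9.80) lies among the Ti arrays.

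The superoxide dismutases and catalase had the highest median difference of the 5 role groups, 0.44, with all 4 genes above 0. Sod2, the manganese superoxide dismutase of the mitochondrial matrix, known as a target of NF-kB and of inflammatory cytokines, had a log2 signal of 12.67, 13.14 and 12.98 on Ta replicates 1, 2 and 3 and of 11.26, 11.78 and 11.33 on Ti replicates 1, 2 and 3. Every Ta array was above every Ti array, and the gap between the groups was wider than the spread within either. Sod2 rose by 1.47 ± 0.19 (log2, SE, n = 3 per group, adjusted p = 0.0396), a 2.77-fold higher signal. Within slide row 1 alone, where only Ti replicate 1 stands against the 3 Ta arrays, the difference was 1.66 and did not pass (adjusted p = 0.178).

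Sod1, the copper and zinc enzyme of the cytosol, had a log2 signal of 14.77, 14.94 and 15.06 on Ta and of 14.37, 14.55 and 14.49 on Ti. The groups did not overlap, and the difference of 0.45 ± 0.10 missed the threshold (adjusted p = 0.0635). Catalase (Cat), the peroxisomal enzyme that splits hydrogen peroxide, showed the same order, with 8.77, 8.99 and 9.10 on Ta against 8.54, 8.47 and 8.59 on Ti and a difference of 0.42 ± 0.11 (adjusted p = 0.0709). Both passed with normexp correction, in limma's trend and robust mode and without Ta replicate 1, which called 2591, 2106 and 3221 of all genes. Sod3, the secreted enzyme bound to the cell surface and matrix, had 12.85, 12.73 and 13.20 on Ta and 12.78, 12.68 and 12.70 on Ti. Its groups overlapped, at a difference of 0.21 with a 95% interval from -0.12 to 0.54.

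In the NRF2 pathway group 0 of 4 genes passed. Nfe2l2, which encodes NRF2, had a log2 signal of 12.86, 12.80 and 12.75 on Ta and of 13.06, 12.92 and 13.15 on Ti. Every Ta array lay below every Ti array, at a difference of -0.24 ± 0.09 (adjusted p = 0.142). NRF2 is known to be controlled mainly through its protein, which arrays do not measure. Keap1 had 7.17, 7.25 and 7.46 on Ta and 7.54, 7.05 and 7.26 on Ti. The groups overlapped in full and the difference was 0.01 with a 95% interval from -0.35 to 0.38.

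Nqo1 encodes a quinone reductase that is often used as a readout of NRF2 activity. Its log2 signal was 11.64, 12.09 and 12.41 on Ta and 11.51, 11.09 and 11.29 on Ti. Ta replicate 1 stood just above the highest Ti array and the other Ta arrays well above it. The difference was 0.75 ± 0.22 (adjusted p = 0.0858, and 0.0249 without Ta replicate 1). Osgin1, an oxidative stress response gene, differed by 0.14 at signals from 4.82 to 5.23 and its groups overlapped.

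**Figure D2:**
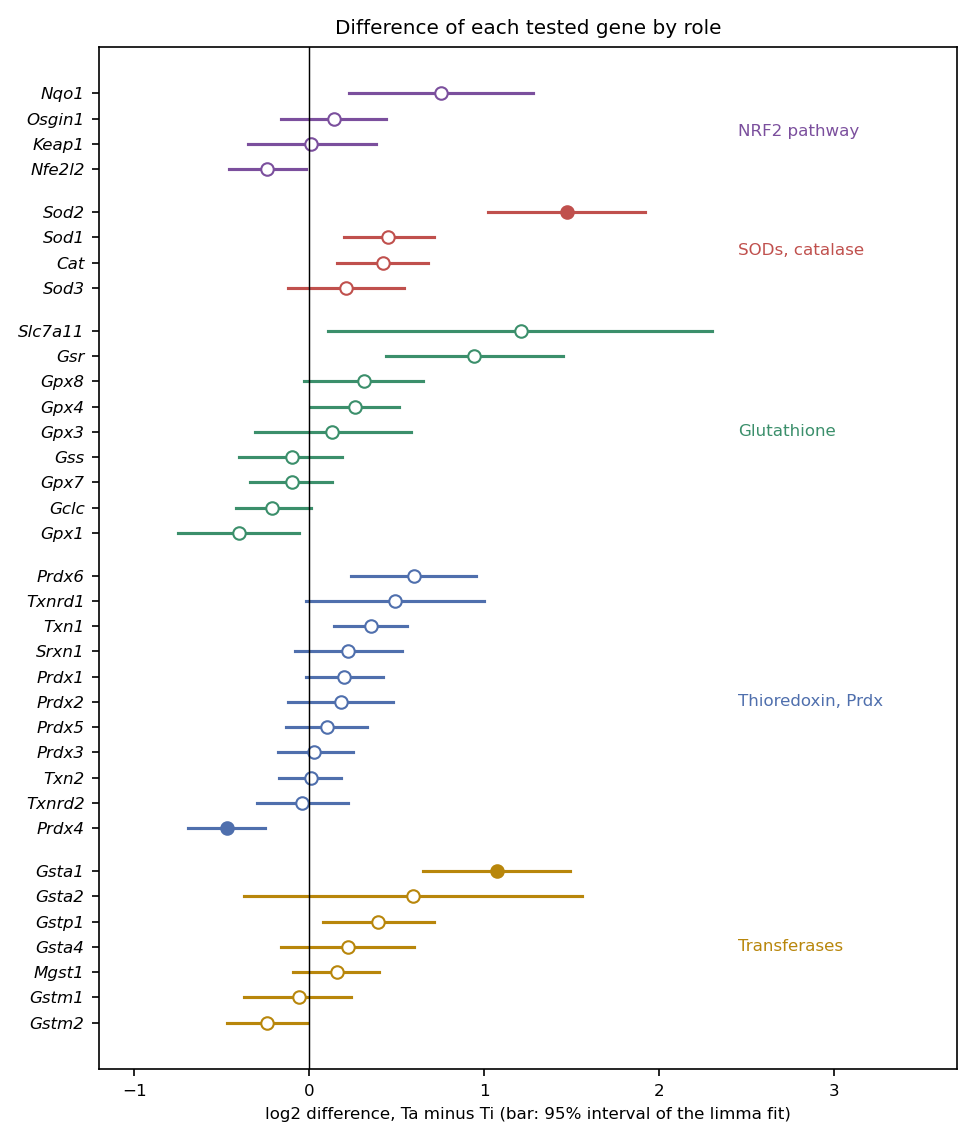
Log2 difference of each tested gene (Ta minus Ti, horizontal axis) with its 95% interval from the limma fit, grouped by role, filled where the adjusted p was under 0.05. Sod2 (1.47), Gsta1 (1.07) and Prdx4 (-0.47) are filled, and Slc7a11 (1.21) has the widest interval, from 0.11 to 2.30.

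Among the genes of glutathione supply and use, 9 of 10 were tested, 0 passed, and the median difference was 0.13. Slc7a11 encodes the transport subunit of the cystine and glutamate exchanger, which brings in the cystine from which cysteine for glutathione is made. Its log2 signal was 9.80, 11.58 and 11.23 on Ta and 9.88, 9.51 and 9.60 on Ti. Ta replicates 2 and 3 were far above the Ti arrays, while Ta replicate 1 lay below Ti replicate 1. The difference was 1.21 ± 0.45 (adjusted p = 0.139), and 1.74 without Ta replicate 1 (adjusted p = 0.00872). A second, dimmer probe of Slc7a11 had 5.38, 7.08 and 6.78 on Ta and 4.72, 4.56 and 4.60 on Ti, so that here Ta replicate 1 also lay above the Ti arrays. Slc3a2, which is not among the 36 and encodes the other subunit of the exchanger, differed by -0.24 ± 0.08 with every Ta array below every Ti array (adjusted p = 0.119), and is named after its values were seen.

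Gsr, the glutathione reductase that recharges oxidised glutathione, had a log2 signal of 7.62, 8.10 and 8.12 on Ta and of 6.81, 7.37 and 6.85 on Ti. The groups did not overlap, and the difference of 0.94 ± 0.21 missed the threshold (adjusted p = 0.0584). It passed in 5 alternatives, among them the stricter filter on dim probes and leaving out Ti replicate 2. Gclc, the catalytic subunit of the enzyme that makes the first step of glutathione, was lower on every Ta array, with 11.68, 11.72 and 11.66 on Ta and 11.99, 11.77 and 11.92 on Ti. That difference was -0.21 ± 0.09 (adjusted p = 0.177). Gss, the synthase of the second step, differed by -0.10 and its groups overlapped.

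The 5 glutathione peroxidases ran in both directions and none of them passed. Gpx4, which removes lipid hydroperoxides from membranes, differed by 0.26 and Gpx8, a peroxidase of the endoplasmic reticulum, by 0.31, with every Ta array above every Ti array for both. A second probe of Gpx4 gave 0.07 with overlapping groups. Gpx1, the abundant cytosolic peroxidase, differed by -0.40 ± 0.14 (adjusted p = 0.119), and its second probe gave -0.54, with every Ta array below every Ti array on both. On both probes Ta replicate 1 was the Ta array nearest to Ti, at 14.75 against 14.38 and 14.29 on the brighter one. Gpx3, the secreted enzyme, differed by 0.13 and Gpx7, of the endoplasmic reticulum, by -0.10, with groups that overlapped.

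**Figure D3:**
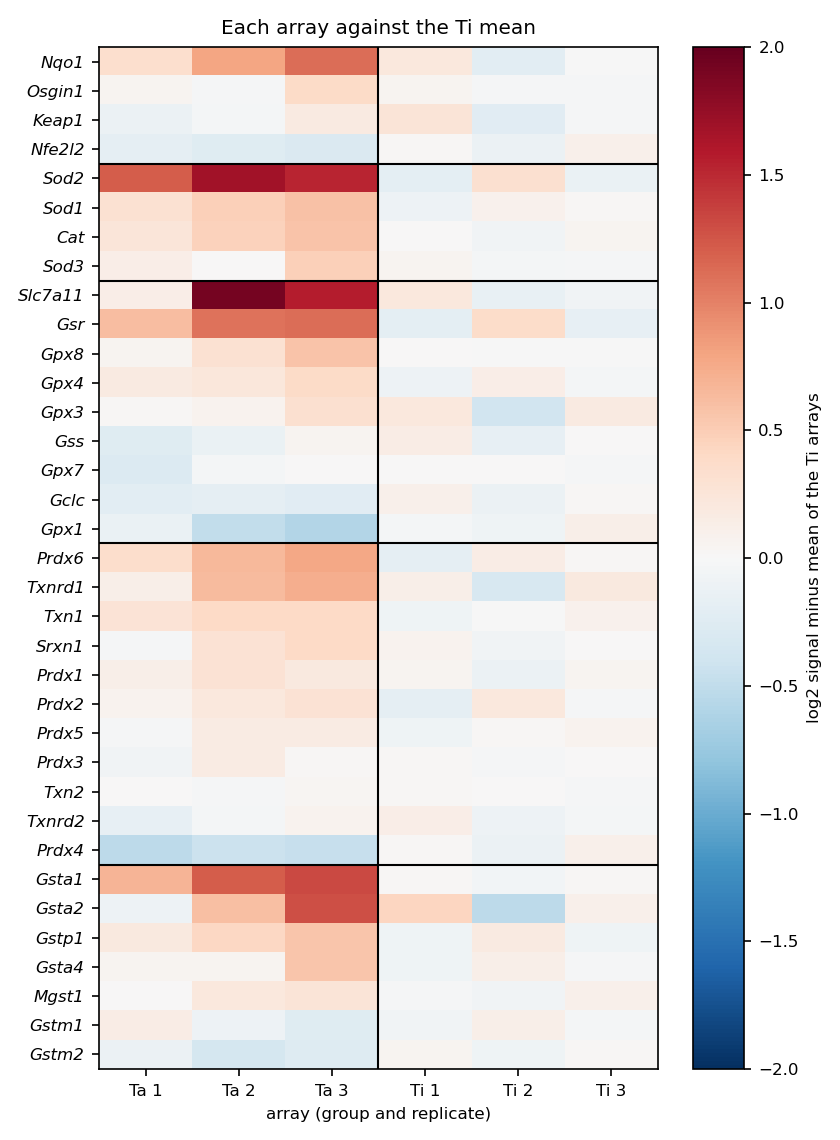
Log2 signal of each tested gene (rows, grouped by role and ordered by difference) on each array (columns) minus the mean of the 3 Ti arrays, from blue (lower) to red (higher). Sod2 and Gsta1 are red on all 3 Ta arrays, Prdx4 is blue on all 3, and Slc7a11 is near the Ti mean on Ta replicate 1.

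Of the 11 genes of the thioredoxin system, Prdx4 fell, 10 did not pass, and the median difference was 0.18. Prdx4 is the peroxiredoxin of the endoplasmic reticulum, where it uses hydrogen peroxide to support disulphide formation. Its log2 signal was 10.83, 10.93 and 10.90 on Ta and 11.37, 11.23 and 11.46 on Ti. The Ta arrays differed from each other by no more than 0.10, and all lay below the lowest Ti array. The log2 difference was -0.47 ± 0.09 and Prdx4 thus fell (adjusted p = 0.0493), a 1.38-fold lower signal on Ta. The call sits at the threshold and was lost with quantile scaling (adjusted p = 0.0502). Its only probe is shown because the call rests on it alone, placed by the array design at chrX:61506921-61506980 on the plus strand (rn4, per the file header), and no base is in capitals.
Prdx4 probe: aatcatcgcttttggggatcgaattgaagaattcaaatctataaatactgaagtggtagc

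The other peroxiredoxins lay above 0. Prdx6, which reduces phospholipid hydroperoxides with glutathione, had a log2 signal of 15.07, 15.37 and 15.50 on Ta and of 14.54, 14.87 and 14.75 on Ti. The groups did not overlap, at a difference of 0.60 ± 0.15 (adjusted p = 0.0672), and a second probe gave 0.54. Prdx1 differed by 0.20 with groups apart, and Prdx2, Prdx5 and the mitochondrial Prdx3 by 0.18, 0.10 and 0.03 with groups that overlapped.

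Among the thioredoxins and their partners, Txn1, the cytosolic thioredoxin, differed by 0.35 ± 0.09 (adjusted p = 0.0671), with every Ta array above every Ti array. A dim second probe of Txn1 gave 0.18 with overlapping groups. Txnrd1, the selenium-containing reductase that recharges it, had a log2 signal of 8.73, 9.24 and 9.34 on Ta and of 8.73, 8.30 and 8.81 on Ti. Ta replicate 1 lay within the Ti range, and the difference was 0.49 ± 0.21 (adjusted p = 0.18), or 0.79 on its second probe. Srxn1, the sulfiredoxin that repairs over-oxidised peroxiredoxins and a known NRF2 target, had 12.17, 12.48 and 12.59 on Ta and 12.26, 12.12 and 12.19 on Ti, with overlapping groups at a difference of 0.22 ± 0.12 (adjusted p = 0.278).

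The mitochondrial pair stood near 0. Txn2 differed by 0.01 with a 95% interval from -0.17 to 0.18, but its second probe gave -0.29 with every Ta array below every Ti array, so its direction is uncertain. Txnrd2 differed by -0.04 with an interval from -0.30 to 0.22.

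Of the 7 glutathione transferases, Gsta1 rose and 6 did not pass, at a median difference of 0.22. Gsta1, an alpha-class enzyme that acts on electrophiles and on organic peroxides, had a log2 signal of 12.62, 13.15 and 13.26 on Ta and of 11.97, 11.89 and 11.97 on Ti. The Ti arrays agreed closely, and Ta replicate 1 lay between them and the other Ta arrays. Gsta1 rose by 1.07 ± 0.17 (adjusted p = 0.0438), a 2.10-fold higher signal. A second probe had 11.91, 12.64 and 12.72 on Ta and 11.65, 11.47 and 11.64 on Ti, a difference of 0.83 in the same direction, and with the mean of both probes the difference was 0.95 and did not pass (adjusted p = 0.0535). Alpha-class transferases are a family of closely related genes, so signal from relatives on these probes cannot be told apart here. The second probe is shown for that reason, placed at chr9:20053602-20053661 on the minus strand of the same array design, with no base in capitals.
Gsta1 second probe: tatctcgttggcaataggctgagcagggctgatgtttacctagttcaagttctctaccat

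Gsta2, another alpha-class gene, was dim and scattered, with a log2 signal of 5.01, 5.72 and 6.40 on Ta and of 5.54, 4.59 and 5.22 on Ti. Its groups overlapped, and the difference of 0.59 had a 95% interval from -0.37 to 1.56. Gstp1, the pi-class enzyme, had every Ta array above every Ti array on both of its probes, with a difference of 0.39 ± 0.13 (adjusted p = 0.109) and of 0.40 on the second. Gsta4, which acts on the lipid peroxidation product hydroxynonenal, and the membrane-bound Mgst1 differed by 0.22 and 0.16 with overlapping groups. The mu-class genes ran the other way or not at all, Gstm2 at -0.24 with all Ta arrays lower (adjusted p = 0.149) and Gstm1 at -0.06 (0.02 on its second probe).

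The Ta arrays were not alike in these genes. In 22 of the 26 genes above 0, Ta replicate 1 had the lowest or joint lowest signal of the 3 Ta arrays. That count was not made over all genes. Leaving out Ta replicate 1 raised the calls among all genes, from 809 to 3221, and not only among these. The mean log2 signal of the 35 genes was 11.18, 11.39 and 11.49 on Ta replicates 1, 2 and 3, against 11.05 to 11.12 on Ti. The summed signal of the macrophage markers was ordered the other way, at 183608, 109912 and 71586 on Ta replicates 1, 2 and 3, against 199941 to 259109 on Ti. Their part in the order of the Ta arrays was not tested.

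Of 75 further redox genes in 6 lists, 71 were tested, 5 rose, 0 fell and 66 did not pass, with a median of 0.13, beside 2.66% of all genes called higher, 1.47% called lower and a median of 0.03 over all genes. Among other NRF2 targets, 3 of 15 rose and 0 fell, at a median of 0.24. Hmox1, the heme oxygenase, had a log2 signal of 14.43, 14.73 and 14.80 on Ta and of 13.66, 13.97 and 13.71 on Ti, and rose by 0.87 ± 0.14 (adjusted p = 0.0424). Pir, which encodes pirin, rose by 0.85 ± 0.12 (adjusted p = 0.0396). The aldo-keto reductase gene Akr1b8 rose by 0.80 ± 0.14 (adjusted p = 0.0453), and its second probe gave 1.36.

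Of 11 partners and regulators of NRF2, Maff, a small MAF protein that pairs with NRF2, rose by 0.76 ± 0.14 (adjusted p = 0.0482) and 10 did not pass. Of 12 other glutathione genes, Glrx, the cytosolic glutaredoxin that removes glutathione from proteins, rose by 0.72 ± 0.13 (adjusted p = 0.0465). In each of these 5 genes every Ta array lay above every Ti array. These calls, too, depended on single arrays. In limma 0 of all genes passed when Ta replicate 2 or 3 or Ti replicate 1 or 3 was left out. Those fits held 3818 to 4474 genes below an unadjusted p of 0.05. Called genes numbered 3221 with Ta replicate 1 left out and 1563 with Ti replicate 2 left out, against 809 on all arrays. Whether these 5 genes were among those called with either array left out is not given here.

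The remaining lists held no call. In the NADPH supply list 0 of 7 genes passed (3 at an unadjusted p under 0.05 in limma). Of 11 further thioredoxin family and methionine sulfoxide reductase genes 0 passed (2 unadjusted), and Txnip, the inhibitor of thioredoxin, differed by -0.34 ± 0.20 with overlapping groups. Of 15 further glutathione transferase genes 0 passed (4 unadjusted), with differences from -1.27 to 2.67. Both extremes, named after their values were seen, belong to the membrane-bound family of Mgst1. Ptges, the inducible prostaglandin E synthase, differed by 2.67 ± 0.55 (adjusted p = 0.0523) and Mgst3 by -1.27 ± 0.25 (adjusted p = 0.0508), both with groups apart.

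**Figure D4:**
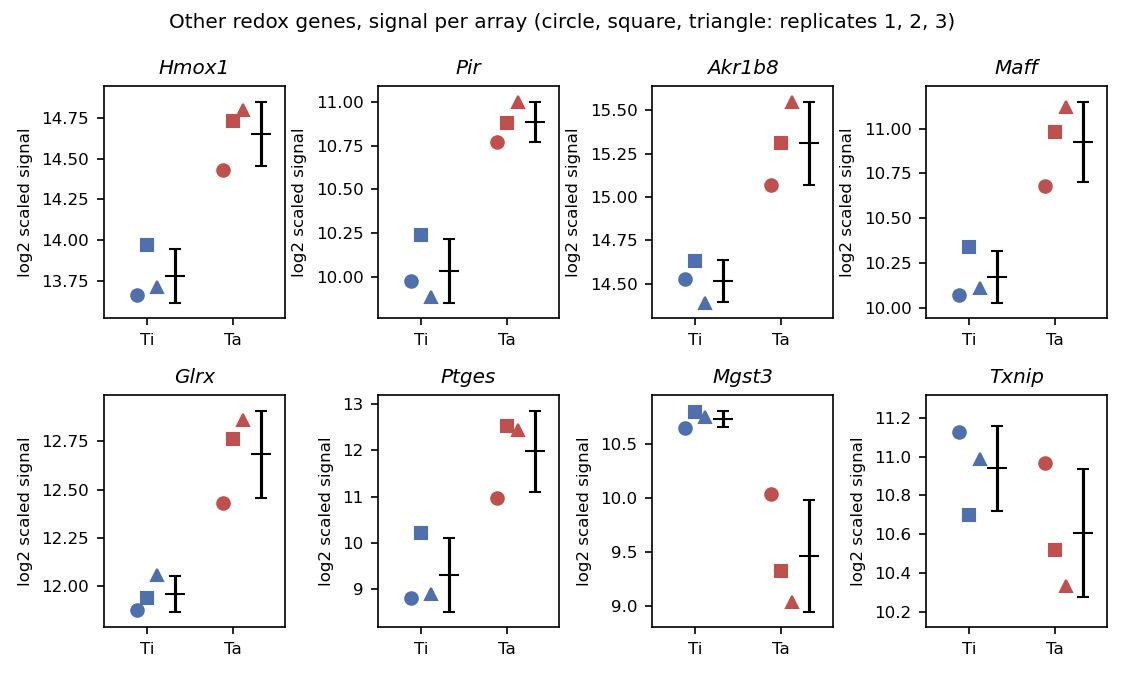
Log2 scaled signal (vertical axis, a separate range in each panel) of 8 further redox genes on the Ti arrays (blue) and the Ta arrays (red), one point per array, with the mean and SD of each group in black. Hmox1, Pir, Akr1b8, Maff and Glrx passed the test, and Ptges, Mgst3 and Txnip did not, with groups that are apart for Ptges and Mgst3 and overlap for Txnip.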

How the data were processed

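Total RNA of 6 cultures was measured on one-colour arrays. What the authors deposited is the intensity of each spot, linear and detrended within each array, with background correction switched off, by Agilent Feature Extraction 12.0.3.1, per the file headers, and not scaled across arrays. Agilent Feature Extraction 12.0 and limma are named in the submitters' processing notes. The deposited value table equalled these intensities.

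The log2 signal of each array was scaled to a common 75th percentile over 58717 non-control spots. Spots marked as outliers were left out, spots of a probe were averaged, and probes well above background on at least 3 of 6 arrays were kept. The brightest probe stood for its gene. Genes were named by the file of Ta replicate 1 and RefSeq (GRCr8). Groups were compared with limma 3.58.1 in R 4.3.3 (lmFit and eBayes, two-sided, Benjamini-Hochberg over 19616 genes, threshold 0.05). SE is limma's moderated standard error. The test was checked on simulated data. The number of arrays limits the precision.

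The genes and lists were chosen with earlier results of these data known. Values on every array are given for genes past the test, for the 2 largest differences of each role group and for Nfe2l2, Keap1, Nqo1, Gclc, Txnrd1, Srxn1, Slc7a11, the superoxide dismutases and Cat. Further redox genes are named if past the test, with Hmox1 and Txnip always given; 1 further gene of that rule is not reported here. Slc3a2, Ptges and Mgst3 were added after their values were seen. Alternatives were quantile and median scaling, normexp correction, kept outlier spots, other filters and probe rules, blocks, trend and robust settings, and leaving out each array.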

Additional observations from a re-analysis of the deposited data

How the results depend on the processing

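The 809 genes called of all 19616 and the 3 calls among the 35 (2 higher, 1 lower) depended on the setting. Normexp background correction called 2591 of all genes and 8 of the 35 (7 higher), and trend and robust settings called 2106 and 8 (7 higher). Both without a filter on dim probes and with the slide row as block, limma called 0 of all genes and 0 of the 35, in either direction (5814 and 3837 of all genes at an unadjusted p under 0.05). Quantile scaling left 0 lower, and the mean of a gene's probes left 1 higher. Leaving out each array in turn gave 0 to 3221 of all genes and 0 to 11 of the 35, 0 to 9 of them higher and 0 to 2 lower. The cause of these changes was not tested. Sod2, Gsta1 and Prdx4 kept their direction in all 16 alternatives, as did 29 of the 35 genes.

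The replicate number as a block left 8 of all genes and 0 of the 35, with Sod2, Gsta1 and Prdx4 at the same differences (adjusted p = 0.0648, 0.0787 and 0.104). Whether same-numbered arrays share an animal or a batch is not known here. The deviations of same-numbered arrays from their group means had correlations of 0.06, 0.13 and -0.18 over genes, which cannot settle it.

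The 6 genes that changed sign, at -0.06 to 0.13 in the reported analysis, were not called. Keap1 gave -0.02 with median scaling, -0.24 with slide row as a block and -0.10 to 0.14 without single arrays. Txn2 gave -0.03 with median scaling, -0.02 with normexp and with slide row as a block, -0.14 with the mean of its probes and -0.01 to 0.02 without single arrays. Prdx3 gave -0.0021 with median scaling, Gpx3 -0.07 and Gstm1 0.02 with slide row as a block. Without single arrays Prdx3 ranged from -0.03 to 0.09, Gpx3 from -0.05 to 0.24, Gstm1 from -0.17 to 0.03 and Txnrd2 from -0.10 to 0.03. In the row block only Ti replicate 1 is left to compare with Ta. Signal over background limits Gclm, which was not well above background, and Gsta2 and Osgin1, which were dim.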
